A study of Homo sapiens with 32 samples.

Results

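The genes of the cytosolic ribosomal proteins were taken from the GENCODE annotation of GRCh38 as the autosomal protein-coding genes whose symbol is RPL or RPS with a number, or RPLP0, RPLP1, RPLP2 or RPSA. Genes of RPS6 kinases and of mitochondrial ribosomal proteins were left out. This gave 78 of 19111 autosomal protein-coding genes. The measured quantity was the covered share, the percentage of the known bases of a gene with 5 kb on each side that lay in regions of uracil enrichment. These regions came from U-DNA-Seq, in which DNA fragments that contain uracil are pulled down with a catalytically inactive uracil-DNA glycosylase (ΔUNG) and sequenced beside input DNA. The authors state that fluorouracil in DNA is detected as well, and that 5-fluoro-2′-deoxyuridine treatment also places the fluorinated nucleotide in DNA. Regions found after that drug may therefore reflect both bases.

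Each ribosomal protein binds ribosomal RNA or a neighbouring protein at a set place of the large (RPL) or the small (RPS) subunit, and the genes are among the most strongly transcribed ones of dividing cells. Their messages begin with a run of pyrimidines, the 5′ terminal oligopyrimidine (TOP) motif, through which growth signalling controls their translation. Several of the genes carry small nucleolar RNA (snoRNA) genes in their introns, and most have left many processed pseudogenes in the genome. Uracil enters DNA in place of thymine when thymidylate synthesis is blocked, and uracil-DNA glycosylase (UNG) removes it.

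The study compared 7 conditions of HCT116, a human colorectal carcinoma line that lacks mismatch repair (MMR), with 2 independent biological replicates each. WT cells carried no transgene and received no drug. NT_UGI cells stably expressed the UNG inhibitor UGI together with EGFP after retroviral transduction and sorting, and were not treated. 5FdUR_UGI and RTX_UGI cells also expressed UGI, and they were treated for 48 h, the former with 5-fluoro-2′-deoxyuridine (5FdUR, 20 µM) and the latter with raltitrexed (RTX, 100 nM). Both agents inhibit thymidylate synthase. NT_UGI_MMR, 5FdUR_UGI_MMR and RTX_UGI_MMR were the matching conditions in a sub-line made MMR proficient by a transferred chromosome 3 with wild-type hMLH1. A single library came from WT K562 cells, a leukaemia line, so 15 libraries were analysed. All 8 drug-treated libraries thus expressed UGI, whereas 2 of the 6 non-treated HCT116 libraries did not. The region files hold no expression values, so the cell lines could not be checked against marker genes.

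The regions covered 10.9 to 11.3% of the known genome in the non-treated libraries, 17.1 to 17.8% with 5FdUR, 17.2 to 18.9% with RTX and 11.0% in K562. The authors chose the log2 threshold of each library so that total lengths within a condition were about equal, and the lowest log2 value of a region was 0.25 to 0.33 without a drug, 0.13 to 0.25 with 5FdUR and 0.25 to 0.27 with RTX. Sequencing depth is unknown from these files, so a gene without a covered base is a gene below the library's threshold, and precision was judged from the spread between libraries.

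The starts of the genes show the feature they share in sequence. Promoters from RefSeq (GRCh38.p14), of 300 bases with 250 before the start, were matched by symbol for 61 of the 78 genes. A C at the annotated start followed by at least 4 pyrimidines was found in 41 of the 61 (67.2%), against 4.66% of 14616 autosomal protein-coding promoters. Within 5 bases of the start, the share was 80.3%, against 22.1%. The letters CCGGAAG, searched on both strands, were found in 34.4% and 14.5% of these promoters, and TATAAA between 40 and 15 bases before the start in 4.92% and 3.82%. The 80 bases before and 10 bases from the start are given here for the genes on which the results turn. Capitals mark the pyrimidine run that begins with C at the start, as far as it lies in the printed bases. RPL7A and RPS18 were covered most, RPS3 and RPS25 were covered far more with RTX, RPL38 and RPS12 were covered with 5FdUR and not with RTX, RPL14, RPL35A and RPS23 were never covered, and the retrogene RPL10L has no such run. RPL9 and RPL32, which are not printed, were also among the genes covered most and have no such run within 5 bases of the annotated start used. Other annotated starts of these genes were not searched, so their messages may still begin with the motif.
RPL7A, chr9:133348138-133348227, plus strand: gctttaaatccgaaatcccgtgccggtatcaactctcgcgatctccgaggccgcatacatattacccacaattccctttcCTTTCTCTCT
RPS18, chr6:33271995-33272084, plus strand: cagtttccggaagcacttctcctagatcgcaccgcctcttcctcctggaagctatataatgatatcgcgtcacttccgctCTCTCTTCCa
RPS3, chr11:75399438-75399527, plus strand: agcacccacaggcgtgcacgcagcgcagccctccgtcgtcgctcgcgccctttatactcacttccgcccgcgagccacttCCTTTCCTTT
RPS25, chr11:119018334-119018423, minus strand: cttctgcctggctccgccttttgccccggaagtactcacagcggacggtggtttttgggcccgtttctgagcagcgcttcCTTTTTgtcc
RPL38, chr17:74203598-74203687, plus strand: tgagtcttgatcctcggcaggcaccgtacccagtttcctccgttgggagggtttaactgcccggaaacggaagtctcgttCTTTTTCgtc
RPS12, chr6:132814489-132814578, plus strand: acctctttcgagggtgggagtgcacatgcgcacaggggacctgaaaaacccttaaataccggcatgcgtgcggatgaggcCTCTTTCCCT
RPL14, chr3:40457259-40457348, plus strand: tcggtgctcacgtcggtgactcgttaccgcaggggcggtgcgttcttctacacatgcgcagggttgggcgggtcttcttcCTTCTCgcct
RPL35A, chr3:197950110-197950199, plus strand: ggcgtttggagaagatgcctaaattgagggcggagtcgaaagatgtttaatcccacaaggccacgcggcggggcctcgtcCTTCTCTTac
RPS23, chr5:82278345-82278434, minus strand: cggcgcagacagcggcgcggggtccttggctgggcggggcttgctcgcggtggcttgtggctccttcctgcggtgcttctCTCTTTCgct
RPL10L, chr14:46651772-46651861, minus strand: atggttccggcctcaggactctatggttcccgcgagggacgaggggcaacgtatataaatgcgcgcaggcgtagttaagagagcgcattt
The run thus stands at the start of genes that were never covered as well as of some that were covered most.

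Without a drug, regions of uracil enrichment were nearly absent from the ribosomal protein genes. The mean covered share over the 78 genes was between 0.198% and 0.629% in the 6 non-treated HCT116 libraries, while the mean over all autosomal protein-coding genes was between 4.30% and 4.66%. In 66 of the 78 genes (84.6%) no base was covered in any of these libraries, against 51.2% of all genes. None of the 61 promoters held a covered base in any non-treated library or in K562, against 1.52 to 1.91% of the promoters of all genes in the non-treated libraries. In K562, 3 of the 78 genes held a covered base, 3.85% against 35.5% of all genes, namely RPL10L with 12.8%, RPSA with 1.02% and RPL39L with 0.572%. The bodies of these genes were short, with a median of 5.44 kb against 27.9 kb over all genes, and the part of length in these counts was not tested. The median GC content of the windows was 47.7% for the ribosomal protein genes and 44.8% for all genes.

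With either drug the genes were covered. In RTX_UGI cells the mean covered share over the 78 genes was 45.8% and 54.6%, and in RTX_UGI_MMR cells 28.3% and 36.1%. In 5FdUR_UGI cells it was 34.1% and 13.9%, and in 5FdUR_UGI_MMR cells 8.71% and 5.196%. The means over all genes in the same libraries were 40.6% and 45.3%, 33.6% and 38.7%, 33.2% and 25.9%, and 19.3% and 14.7%. The ribosomal protein genes thus lay above all genes in both RTX_UGI libraries and in 5FdUR_UGI replicate 1, and below them in the other drug-treated libraries, both replicates of 5FdUR_UGI_MMR included. The replicates of 5FdUR_UGI differed widely, with a median over the 78 genes of 24.9% in replicate 1 and 0.914% in replicate 2. Both medians were 0 in 5FdUR_UGI_MMR. The lowest log2 values of these 4 libraries were 0.25, 0.14, 0.20 and 0.13, and their part in the difference was not tested.

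**Figure D1:**
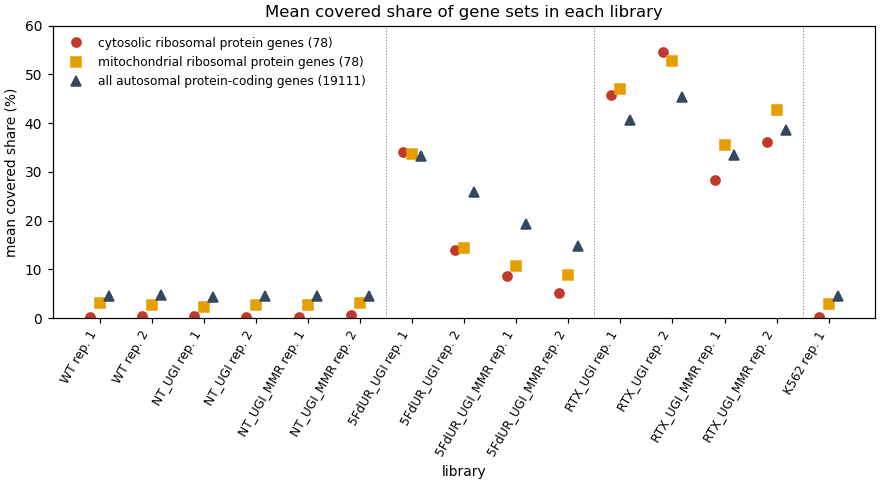
Mean covered share (in percent, y axis) of the 78 cytosolic ribosomal protein genes, of 78 mitochondrial ribosomal protein genes and of all 19111 autosomal protein-coding genes in each of the 15 libraries (x axis). The cytosolic set is under 1% in every non-treated library and in K562, at 5.196 to 34.1% with 5FdUR and at 28.3 to 54.6% with RTX.

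The first comparison asked which ribosomal protein genes gained or lost uracil-enriched regions in drug-treated cells. For each gene the mean covered share of the 8 drug-treated libraries was compared with that of the 6 non-treated HCT116 libraries by a two-sided exact permutation test over all 3003 splits, with Benjamini-Hochberg adjustment over the 18846 genes that had a covered base in at least 1 of the 14 libraries. This filter left 74 of the 78 genes. RPL14, RPL35A, RPS23 and RPL8 had no covered base in any library and were not tested. Of the 74 genes, 26 were called higher at an adjusted p under 0.05, against 45.1% of all genes tested, and 1 was called lower, against 9.35%. The 26 genes are 35.1% of the 74. Every drug-treated library lay above every non-treated one in 6 of the 74 genes, against 19.2% of all genes, and below in 0, against 5.6%. The smallest p that the splits allow is 0.000333, and 37 of the 74 genes had an unadjusted p under 0.05. The share of all genes under this unadjusted p was not counted, so the 37 cannot be weighed against it. The median of the gene means over the 78 genes was 28.2% in drug-treated and 0 in non-treated cells, beside 29.8% and 0 over all genes.

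The count of 26 depended on which libraries entered. It was 12 without WT replicate 1, WT replicate 2, NT_UGI replicate 2 or 5FdUR_UGI replicate 1, and 11 without NT_UGI replicate 1, NT_UGI_MMR replicate 1 or NT_UGI_MMR replicate 2. It was 16 without RTX_UGI replicate 1, 17 without RTX_UGI replicate 2, 13 without RTX_UGI_MMR replicate 1 and 14 without RTX_UGI_MMR replicate 2. It was 33 without 5FdUR_UGI replicate 2 and 38 without either 5FdUR_UGI_MMR replicate. Without both WT libraries, so that every cell expressed UGI, it was 4, without 5FdUR_UGI_MMR it was 47, and with a common log2 minimum of 0.34 it was 0. The number of all genes called in either direction moved as well, from 10262 to 3979, 13005 and 2769 in these last settings, and to between 6888 and 11421 with a single library left out. Leaving out libraries also leaves fewer splits, which raises the smallest p that can be reached. RPL9, RPL32, RPL11 and RPS3 were at 0 in every non-treated library, and their calls were lost without any single one of these libraries. The fall to 4 without WT therefore cannot be read as an effect of UGI alone, and the part of each was not tested.

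**Figure D2:**
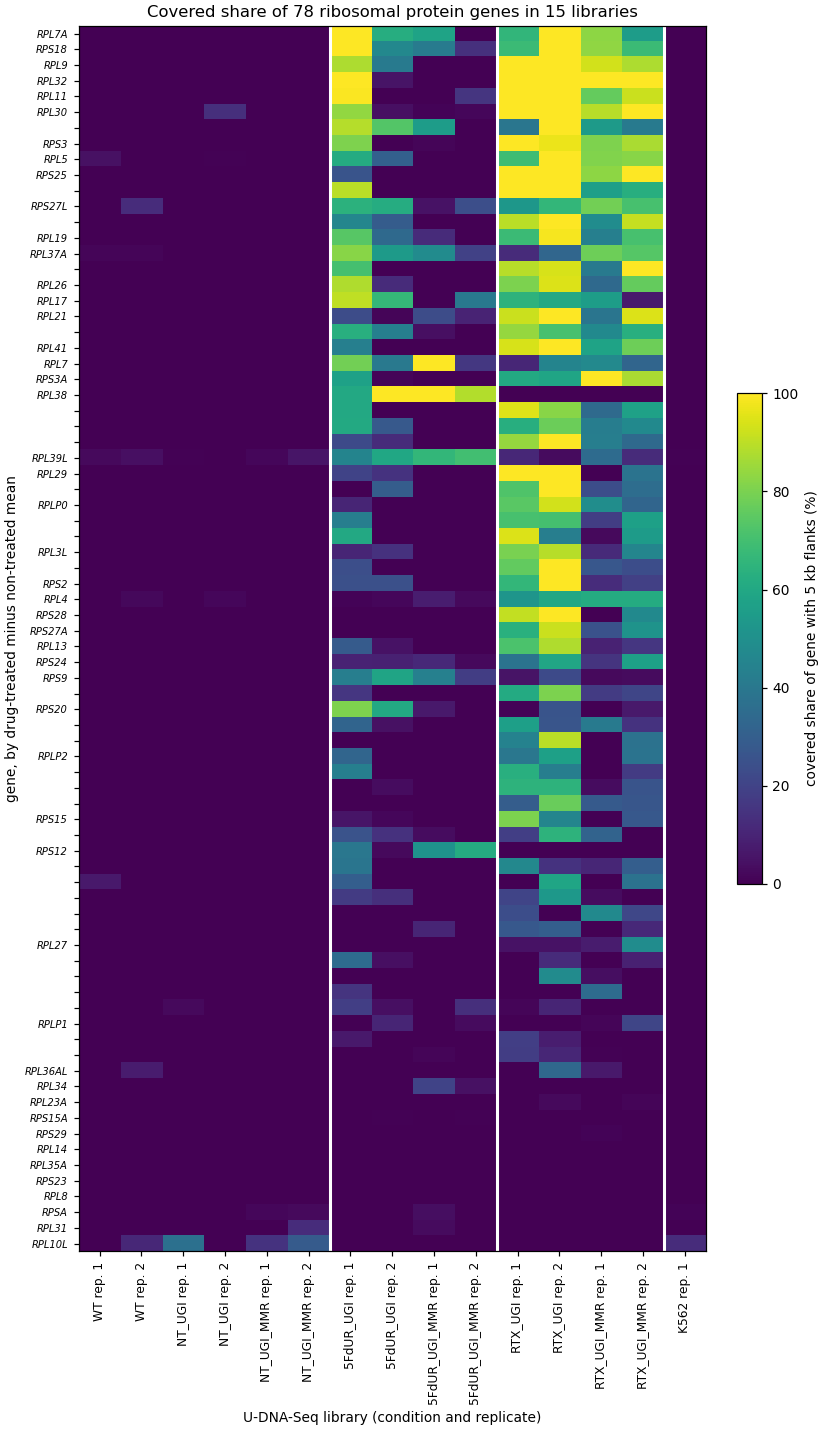
Covered share (colour, 0 to 100%) of each of the 78 genes with 5 kb flanks (rows, ordered by drug-treated minus non-treated mean) in the 15 libraries (columns, white lines between non-treated, 5FdUR, RTX and K562), with the genes described in the text labelled. RPL7A and RPS18 stand at the top with drug-treated means of 65.6% and 65.2%, RPL38 is covered in the 5FdUR columns and at 0 in the RTX columns, and RPL10L at the bottom is covered without a drug and at 0 with either drug.

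Of the 10 genes with the largest differences, 6 encode large-subunit proteins. RPL7A (chr9:133348218-133351426), a large-subunit protein whose gene holds 4 snoRNA genes, had no covered base in any non-treated library. It was covered at 100% and 62.1% in 5FdUR_UGI, 58.2% and 0 in 5FdUR_UGI_MMR, 65.9% and 100% in RTX_UGI, and 83.1% and 55.3% in RTX_UGI_MMR. Its drug-treated mean of 65.6% ± 31.96 (SD, n = 8) was the highest of the 78 genes (adjusted p = 0.0141, exact permutation test). A single drug-treated library, 5FdUR_UGI_MMR replicate 2, overlapped with the non-treated ones.

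RPS18 (chr6:33272075-33276511), a protein of the head of the small subunit, was at 0 in all 6 non-treated libraries as well. It was covered at 100%, 46.5%, 41.7% and 13.9% in the 5FdUR libraries and at 68.1%, 100%, 83.3% and 68.1% in the RTX libraries. All 8 drug-treated libraries were above the non-treated ones, with a mean of 65.2% ± 30.0 (SD, n = 8; adjusted p = 0.00654, exact permutation test). The other genes whose drug-treated libraries were all above the non-treated ones were RPL37A, RPL21, RPL7, RPS24 and RPS9, and RPS18 makes them 6.

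RPL5 and RPL11 carry the 5S ribosomal RNA into the large subunit, and when they are free they bind and restrain MDM2. Both were called higher. RPL11 (chr1:23691742-23696835) was at 0 without a drug, at 99.6% and 0 in 5FdUR_UGI, at 0 and 15.2% in 5FdUR_UGI_MMR, and at 100%, 100%, 76.4% and 92.0% in the RTX libraries (adjusted p = 0.0307, exact permutation test). RPL5 (chr1:92832013-92841924) was covered at 4.64% in WT replicate 1 and 0.502% in NT_UGI replicate 2 and at 0 in the other non-treated libraries. With 5FdUR it was at 61.3% and 30.8% in MMR deficient cells and at 0 in both MMR proficient libraries, and with RTX at 68.8%, 100%, 81.0% and 82.3% (adjusted p = 0.0344, exact permutation test). The coverage of both genes was thus high in all 4 RTX libraries and uneven with 5FdUR.

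Among the other genes of the highest differences, RPL9 was covered at 63.7% ± 43.6 on average over the 8 drug-treated libraries, RPL32 at 63.2% ± 50.9, RPL30 at 60.01% ± 48.1, and RPS3 at 55.9% ± 46.4 (SD, n = 8). RPL9, RPL32 and RPL30 are large-subunit proteins, and RPS3 lies where the messenger RNA enters the small subunit. Their adjusted p values were 0.0307, 0.0307, 0.0314 and 0.0307 by the exact permutation test. RPS25, a small-subunit protein known from initiation at internal ribosome entry sites, had a mean of 51.1% ± 48.8 (SD, n = 8) and was not called (adjusted p = 0.0691, exact permutation test), since it was at 0 in 3 of the 4 5FdUR libraries. The calls of RPL7A, RPS18, RPL39L and RPS27L held without any single library. Those of RPL32, RPL11, RPL30 and RPS3 were lost without any 1 library other than 5FdUR_UGI replicate 2 and the pair of 5FdUR_UGI_MMR libraries. The call of RPL5 also held without RTX_UGI replicate 2 and that of RPL9 without either RTX_UGI library, and that of RPS9 was lost without 5FdUR_UGI replicate 1 or RTX_UGI replicate 2.

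RPL10L (chr14:46651010-46651781), an intronless retrogene of the X-linked RPL10 with a known role in the testis, went the other way. It was covered at 0 and 11.1% in WT, 36.9% and 0 in NT_UGI, and 14.8% and 28.5% in NT_UGI_MMR. All 8 drug-treated libraries were at 0, and so the difference was -15.2 percentage points (adjusted p = 0.0344, exact permutation test). The covered bases lay in the flanks, since the body without flanks had no covered base in any HCT116 library. The 500 kb on each side of its start were covered at 46.3% on average in non-treated cells and at 1.11% in drug-treated ones, so the neighbourhood showed the same order. The call was lost without any of 7 libraries, which were WT replicate 2, NT_UGI replicate 1, both of NT_UGI_MMR, 5FdUR_UGI replicate 1 and both of RTX_UGI_MMR.

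The genes at the low end had little coverage in any class. RPL14, RPL35A and RPL8, of the large subunit, and RPS23, at the decoding centre, had no covered base in all 15 libraries. Within 500 kb of their starts, 1.33% (RPL14), 46.6% (RPL35A), 31.3% (RPL8) and 14.8% (RPS23) of the bases were covered in RTX-treated cells on average, so the surroundings of RPL35A were covered most and those of RPL14 hardly at all. RPSA, a small-subunit protein also named the laminin receptor, was covered at 0.677% in non-treated and 0.446% in drug-treated cells on average (adjusted p = 0.868, exact permutation test). RPL31, which lies at the rim of the peptide exit tunnel, was at 2.10% and 0.406% (adjusted p = 0.762, exact permutation test), where the first value came from NT_UGI_MMR replicate 2 alone with 12.6%. RPS29, RPS15A and RPL23A had drug-treated means under 1%.

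By subunit, 17 of 41 tested RPL genes and 9 of 30 tested RPS genes were called higher, beside 45.1% of all genes tested. The 3 genes of the P stalk, the flexible arm that recruits translation factors to the ribosome, gave no call. RPLP0 was at 10.3%, 0, 0 and 0 with 5FdUR and at 74.5%, 93.1%, 48.9% and 32.6% with RTX (adjusted p = 0.0836 for both drugs together, exact permutation test). RPLP2 had a drug-treated mean of 20.9% ± 23.3 and RPLP1 of 4.47% ± 7.54 (SD, n = 8), with adjusted p values of 0.117 and 0.276 by the exact permutation test. Of the 3 tested genes around the decoding and mRNA entry sites, RPS3 was called, and RPS2 and RPS15 had means of 30.8% ± 34.9 and 20.1% ± 29.5 (SD, n = 8). RPS27A, which encodes ubiquitin fused to a ribosomal protein, was at 0 in all 4 5FdUR libraries and at 63.4%, 92.1%, 25.1% and 51.3% with RTX (adjusted p = 0.16, exact permutation test).

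The 5 paralogs of core ribosomal proteins did not move together. RPS27L, a p53-inducible paralog of RPS27, was called higher with a mean of 53.0% ± 25.4 (SD, n = 8) against 2.10% in non-treated cells (adjusted p = 0.00732, exact permutation test). RPL39L, a paralog of RPL39 known from the testis, was called higher at 37.7% ± 26.6 (SD, n = 8) against 2.41% (adjusted p = 0.0178, exact permutation test). RPL3L, the paralog of RPL3 in heart and skeletal muscle, had a mean of 31.4% ± 35.8 (SD, n = 8) and no covered base without a drug (adjusted p = 0.0727, exact permutation test). RPL36AL was at 5.06% ± 11.8 (SD, n = 8) and 1.24% (adjusted p = 0.908, exact permutation test), and RPL10L was called lower, as described above. Of the 19 genes mutated in Diamond-Blackfan anaemia, 18 were tested and 7 were called higher, and of the 7 genes around the peptide exit 4 were called higher, beside 45.1% of all genes tested. The highest mean in the first list was that of RPL11, and the highest in the second were those of RPL19 and RPL26 with 50.2% ± 33.6 and 48.2% ± 40.9 (SD, n = 8). RPL35A and RPS29 were lowest in the first list and RPL31 and RPL23A in the second.

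The second comparison set 5FdUR against RTX, which were given at 1 dose each. Averaged over 4 libraries each, 59 of the 78 genes were covered more with RTX and 14 more with 5FdUR, 75.6% and 17.9%, beside 59.1% and 37.9% of all genes. The median of the gene means was 42.6% with RTX and 8.66% with 5FdUR, beside 35.7% and 15.8% over all genes. Every RTX library lay above every 5FdUR library in 16 of the 74 tested genes, against 26.2% of all genes, and every 5FdUR library above every RTX library in 3, against 9.24%. The smallest p that 4 against 4 libraries allow is 0.0286, and no gene of the genome reached an adjusted p under 0.05 in the exact permutation test. An unadjusted p under 0.05 was found in 19 of the 74 genes, and the share of all genes was not counted. The count of 16 was 33 without 5FdUR_UGI replicate 1 and 27 without RTX_UGI_MMR replicate 1. With the common log2 minimum of 0.34, the counts of 16 and 3 were 9 and 0. The shares of all genes were not counted in these settings.

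RPS25 (chr11:119015712-119018691) showed the largest difference towards RTX. It was covered at 26.1%, 0, 0 and 0 in the 5FdUR libraries and at 100%, 100%, 83.1% and 100% in the RTX libraries. The groups did not overlap, and the means differed by -89.2 percentage points, 5FdUR minus RTX (p = 0.0286, exact permutation test). RPL30 followed with 83.9%, 4.01%, 0.949% and 1.90% against 100%, 100%, 89.3% and 100%. RPL32 was covered at 100% in all 4 RTX libraries and at 100%, 5.26%, 0 and 0 with 5FdUR, so that 5FdUR_UGI replicate 1 reached the RTX libraries. RPL41, the shortest protein of the ribosome, was at 43.2%, 0, 0 and 0 against 93.8%, 100%, 57.8% and 78.03%. RPS3 was at 80.5%, 0, 1.22% and 0 against 100%, 96.9%, 80.8% and 87.5%. In each of these genes the first 5FdUR_UGI replicate was far above the other 5FdUR libraries.

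RPL38 (chr17:74203582-74210655), a small large-subunit protein known for its part in the translation of Hox messages in the mouse, was the clearest case of the opposite order. It was covered at 60.2% and 100% in 5FdUR_UGI and at 100% and 88.3% in 5FdUR_UGI_MMR, and had no covered base in any of the 4 RTX libraries (p = 0.0286, exact permutation test). Its 5FdUR mean of 87.1% ± 18.8 (SD, n = 4) was the highest of the 78 genes. The 500 kb on each side of its start were covered at 66.3% with 5FdUR and 16.6% with RTX. RPL39L was at 45.04%, 59.6%, 66.2% and 69.9% with 5FdUR and at 11.0%, 2.86%, 34.8% and 12.4% with RTX (p = 0.0286, exact permutation test). RPS12, a small-subunit protein, was at 39.5%, 2.55%, 50.8% and 61.5% with 5FdUR and at 0 with RTX (p = 0.0286, exact permutation test). Unlike most of the 78 genes, these 3 were covered in both 5FdUR_UGI_MMR libraries. RPS9 and RPS20, also of the small subunit, had 5FdUR means of 40.7% ± 16.7 and 37.0% ± 39.7 and RTX means of 8.25% ± 9.58 and 8.47% ± 12.1 (SD, n = 4), and their libraries overlapped (p = 0.0571 and 0.343, exact permutation test).

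**Figure D3:**
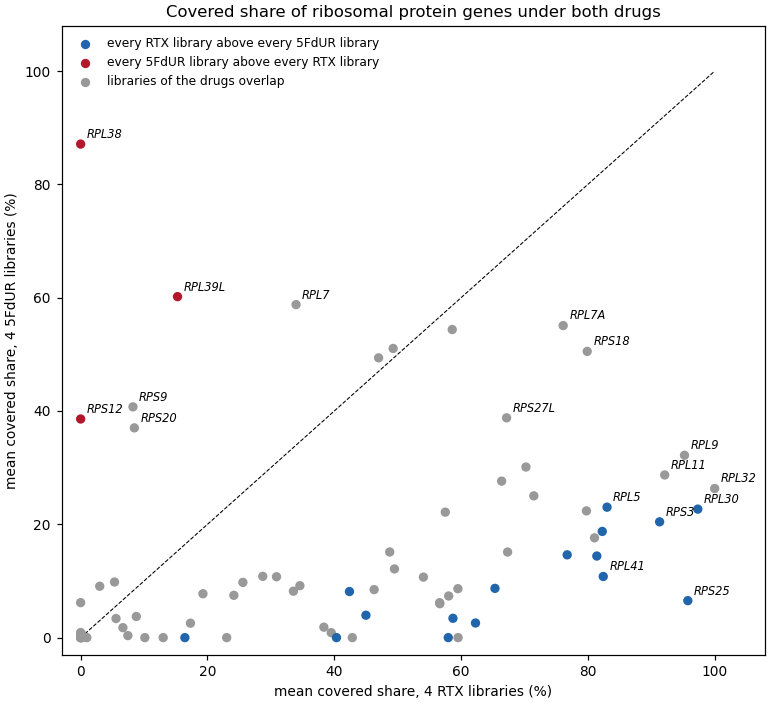
Mean covered share over 4 RTX libraries (x axis, percent) and over 4 5FdUR libraries (y axis, percent) of the 78 genes, with the line of equality. Blue points are the 16 genes in which every RTX library was above every 5FdUR library and red points the 3 genes with the reverse, RPL38, RPL39L and RPS12, and most genes lie below the line.

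Each drug was also set beside the non-treated libraries, which both comparisons share. Every RTX library lay above every non-treated one in 44 of the 74 genes, against 58.3% of all genes, and every 5FdUR library in 9, against 27.2%. The share of ribosomal protein genes was therefore near that of all genes with RTX and below it with 5FdUR. A covered base was found in all 4 RTX libraries in 45 of the 78 genes (57.7%, beside 65.0% of all genes) and in all 4 5FdUR libraries in 12 (15.4%, beside 38.5%). The mean over 4 RTX libraries was at least 50% in 32 genes, between 10 and 50% in 25, above 0 and under 10% in 11, and 0 in 10. With 5FdUR these numbers were 7, 27, 29 and 15. The count of 9 was 15 without 5FdUR_UGI_MMR replicate 2 and 34 without both 5FdUR_UGI_MMR libraries, where the share of all genes was not counted.

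The third comparison asked whether MMR status went with the coverage within a drug. It rests on 2 against 2 libraries, with which no exact permutation test can pass 0.05, and is given by counts. With RTX, both MMR deficient libraries lay above both proficient ones in 34 of the 74 genes, against 29.2% of all genes, and the reverse held in 7, against 16.6%. The largest differences were those of RPL29, with means of 100% and 19.0% in deficient and proficient cells, RPS28 with 95.3% and 23.7%, RPS2 with 83.2% and 15.8%, and RPL13 with 79.9% and 12.7%. RPL37A, RPS3A and RPL27 led the reverse order, with 22.7% and 75.9%, 59.8% and 93.7%, and 4.86% and 28.0%. The genes named here for MMR status were chosen after their values were seen.

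With 5FdUR, both MMR deficient libraries were above both proficient ones in 27 of the 74 genes, against 37.2% of all genes, and the reverse held in 4, against 17.8%. RPS20 had means of 70.6% and 3.48%, RPL9 of 64.4% and 0, and RPL17 of 78.5% and 20.3%. The 4 genes of the reverse order were RPS12, RPL39L, RPL34 and RPL4. In 49 of the 78 genes (62.8%) no base was covered in either 5FdUR_UGI_MMR library, beside 28.8% of all genes. The order deficient above proficient held under both drugs in 12 genes. The share of all genes with this order under both drugs was not counted, so the 12 cannot be weighed against it. The count of 27 was 46 without 5FdUR_UGI replicate 2, and with the common log2 minimum of 0.34 it was 3. Shares of all genes were not counted in these settings either. In untreated UGI-expressing cells the counts were 0, against 5.91% of all genes, and 2, against 6.58%, with RPL39L and RPSA above in proficient cells. MMR status cannot be told apart from other differences of the sub-line, which carries an added chromosome 3. Of the 8 ribosomal protein genes on chromosome 3, 2 were among the 27 genes and 1 among the 34.

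**Figure D4:**
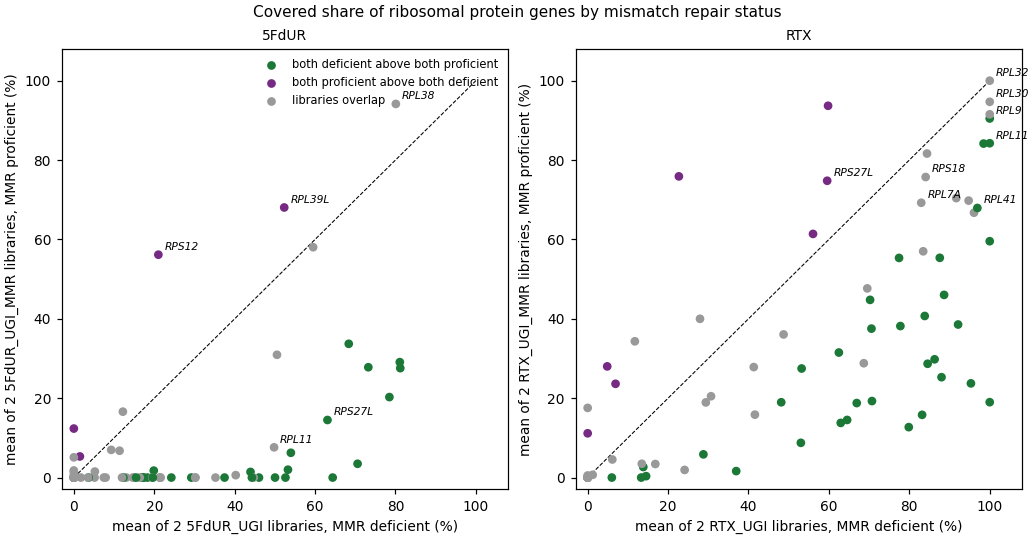
Mean covered share of the 78 genes in 2 MMR deficient libraries (x axis, percent) and in 2 MMR proficient libraries (y axis, percent) of 5FdUR-treated (left) and RTX-treated (right) UGI-expressing cells. Green points are genes with both deficient libraries above both proficient ones (27 and 34), purple points the reverse (4 and 7), and many genes lie on the x axis with 5FdUR.

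Around the start sites, the ribosomal protein genes differed from all genes with 5FdUR and resembled them in shape with RTX. In the 1 kb around the start, the mean covered share with RTX was 37.4% ± 13.3 for the 78 genes and 30.3% ± 7.94 for all genes (SD over 4 libraries). With 5FdUR it was 13.4% ± 10.02 and 27.6% ± 11.6. The RTX profile dipped at the start in both sets, from 50.9% at 20.5 kb upstream to 34.6% in the last 1 kb before the start in the ribosomal protein genes, and from 44.3% to 30.5% in all genes. The 5FdUR profile of all genes rose from 24.3% to 27.6% between these places, while that of the ribosomal protein genes was at 16.9% and 14.5%.

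**Figure D5:**
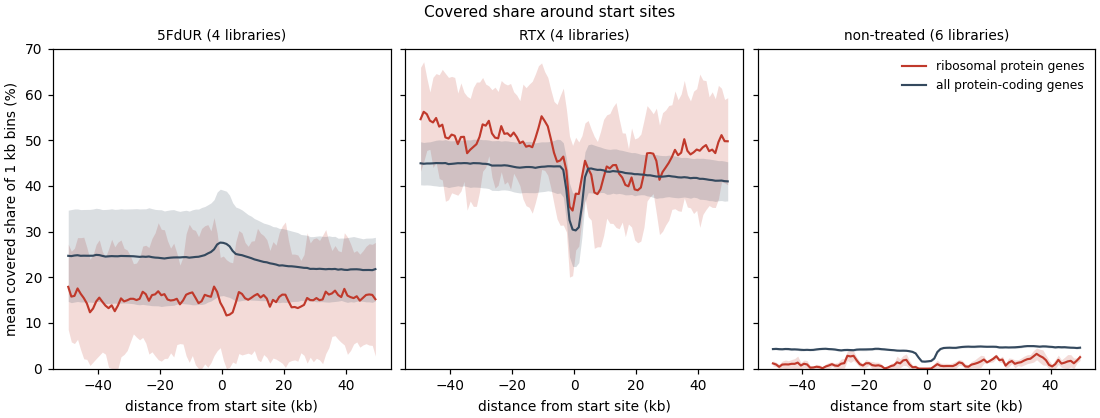
Mean covered share of 1 kb bins (y axis, percent) by distance from the start site along the gene's strand (x axis, kb) for the 78 ribosomal protein genes and all protein-coding genes, with bands of 1 SD over the libraries, in 5FdUR-treated, RTX-treated and non-treated HCT116 cells. Both curves dip at the start with RTX, and with 5FdUR the ribosomal protein genes run below all genes, at 13.4% against 27.6% in the 1 kb around the start.

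Exons and introns were both covered, and their order differed between conditions. In RTX-treated cells 39.0% ± 9.22 of the exon bases and 39.6% ± 4.09 of the intron bases of the 78 genes were covered, and in 5FdUR-treated cells 12.1% ± 11.4 and 25.9% ± 10.8 (SD, n = 4). The near equality with RTX joins opposite orders, with exons and introns at 46.7% and 39.6% in RTX_UGI and at 31.3% and 39.5% in RTX_UGI_MMR. Long genes weigh more in the intron share, and RPL37A alone spans 80.4 kb. Reads that map equally well to a pseudogene were removed by the authors, and their part in the exon values was not tested. Regions that overlapped the windows had a median length of 1.2 to 2.8 kb in the drug-treated libraries, and the longest reached 352 kb in RTX_UGI replicate 2. In that library, 19 of the 78 windows lay wholly within 1 region. The mean log2 value over the covered bases of the genes was between 0.390 and 0.452 with RTX and between 0.238 and 0.412 with 5FdUR, beside 0.402 to 0.459 and 0.224 to 0.443 over all region bases.

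The 500 kb on each side of the starts of the 78 genes were covered at 45.7% ± 7.23 with RTX, 20.6% ± 9.59 with 5FdUR (SD, n = 4) and 2.77% ± 0.113 without a drug (SD, n = 6). In 45 of the 78 genes the window was covered less than the surrounding 500 kb with RTX, and in 55 with 5FdUR, 57.7% and 70.5%, beside 52.2% and 57.6% of all genes. Between window GC content and RTX mean, Pearson r was 0.09 and Spearman rho 0.10 over the 78 genes of the same libraries, beside 0.33 and 0.37 over 19111 genes. For the 5FdUR mean these values were -0.01 and 0.03, beside 0.24 and 0.24. For the non-treated mean they were -0.36 and -0.53, beside -0.58 and -0.85. In windows of 35 to 45% GC, the median RTX mean was 23.03% for 25 ribosomal protein genes and 11.7% for 9452 genes, and the median 5FdUR mean 9.07% and 11.9%. In windows of 45 to 50% GC, the median RTX mean was 48.5% for 22 ribosomal protein genes and 56.6% for 3723 genes, and the median 5FdUR mean 7.33% and 25.6%. Between 50 and 60% GC the RTX values were 46.3% for 31 and 58.9% for 5148 genes, and the 5FdUR values 8.69% and 21.4%. The windows of RPL3L and RPS2 share 5549 bp, so this pair is not independent.

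Among the 78 genes, 26 hold 58 snoRNA genes on their own strand. Their median was 45.6% with RTX and 11.4% with 5FdUR, and that of the 52 other genes 38.9% and 7.94%. Over both drugs together the order was the reverse, with 25.9% and 29.4%. Of the 26 and 52 genes, 10 and 16 were called higher, beside 45.1% of all genes tested. The autosomes also hold 1497 processed pseudogenes named after ribosomal protein genes, 1388 of them after 73 of the 78 genes, with a mean covered share of 5.70 to 6.43% in the non-treated libraries. In 66 of these 73 genes the gene was covered less than the mean of its pseudogenes without a drug. Most of the genes were at 0 there, as was the median over the pseudogenes. Such a gene falls below the mean as soon as any of its pseudogenes holds a covered base, so this count shows little. With RTX the gene was above this mean in 43 of the 73, and with 5FdUR in 18. RPL21, with 128 pseudogenes, had an RTX mean of 81.4% while its pseudogenes averaged 31.3%, and RPL23A, with 89, had 0.972% and 32.2%.

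Related gene lists are given beside the 45.1% of all genes called higher and the 9.35% called lower. Of 78 mitochondrial ribosomal protein genes, 24 were called higher and 4 lower, and the median gene mean was 47.1% with RTX and 10.03% with 5FdUR. Of 37 translation factor genes, 15 were called higher and 2 lower, and the 2 were EIF3E and EIF3H, subunits of initiation factor eIF3. Of 31 ribosome biogenesis genes, 21 were called higher, with NHP2 and NOP56, which act with snoRNAs, at 72.6% ± 36.1 and 64.3% ± 31.0 (SD, n = 8). Of 20 cytosolic aminoacyl-tRNA synthetase genes 9 were called higher and 0 lower. Outside the symbol rule, FAU, which encodes a ubiquitin-like protein fused to a small-subunit protein, had a drug-treated mean of 57.2% ± 43.0 (SD, n = 8). The X-linked RPS4X, RPL36A, RPL39 and RPL10 had no covered base in non-treated cells and drug-treated means of 33.4%, 33.5%, 26.2% and 6.63%.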

How the data were processed

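Region files of 15 enriched libraries and 7 merged files were analysed. The input and mock samples of the 32 samples were not used here. The authors aligned reads to GRCh38 with BWA 0.7.17-r1194, marked duplicates with Picard, removed ambiguous and blacklisted reads, computed smoothed coverage in 100 bp bins with deepTools 3.2.1, and deposited the regions above a threshold with a log2 value each, taken here as enriched over input coverage. SAMtools 1.9-50 is also named in their processing notes. Smoothing sets the finest scale that regions can resolve.

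Covered shares were computed on GENCODE release 44 with NumPy 2.4.6 and plotted with matplotlib 3.10.9. Groups came from the sample labels. Tests were exact permutation tests of libraries with Benjamini-Hochberg adjustment, checked on simulated data, and limma 3.58.1 was an alternative. The genes named in the text were the 10 largest and 5 smallest drug differences, the 5 largest and 5 smallest 5FdUR minus RTX differences, the 3 highest non-treated means, and 5 role lists, with up to 4 examples of other lists. Some genes that this rule selects are not reported here. At the low end, 4 genes tied at 0 and all were named. Where RefSeq lists several starts, that nearest to the GENCODE start was used. The members and lists were chosen with earlier results of these data known. Alternatives were other windows, thresholds, region lengths, scalings, units and libraries.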

Additional observations from a re-analysis of the deposited data

Results flagged for a closer look

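Of 90 groups of library values tested for a single library apart from the rest, 25 held one, where chance flags about 1 in 20 groups. Many of these groups hold values at 0, so that any covered library stands apart. In 5FdUR-treated cells, 5FdUR_UGI replicate 1 stood above the other libraries for the median over the 78 genes (24.9%), RPL32 (100%), RPL11 (99.6%), RPL30 (83.9%), RPS3 (80.5%), RPL41 (43.2%), RPLP2 (32.8%), RPS25 (26.1%) and RPLP0 (10.3%). 5FdUR_UGI_MMR replicate 1 stood above the other 5FdUR libraries, and above all drug-treated ones, for RPSA (3.57%) and RPL31 (2.93%), and 5FdUR_UGI_MMR replicate 2 stood below the drug-treated libraries for RPL7A (0). With RTX, RTX_UGI_MMR replicate 1 was below the others for RPL30 (89.3%) and RPS25 (83.1%), RTX_UGI_MMR replicate 2 was above them for RPLP1 (20.9%) and RPL31 (0.314%), and RTX_UGI replicate 2 for RPS9 (22.5%) and, over all drug-treated libraries, RPL36AL (33.7%). Without a drug, NT_UGI replicate 2 was high for RPL30 (13.6%), WT replicate 1 for RPL5 (4.64%), NT_UGI_MMR replicate 2 for RPL31 (12.6%), and WT replicate 2 for RPS27L (12.6%) and RPL36AL (7.44%).

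RPS27L was covered more in MMR deficient than in proficient cells with 5FdUR, by 48.6 percentage points, and less with RTX, by -15.2, in both replicates of each. This difference between the drugs was not tested.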

How the results depend on the processing

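Counts of genes out of the 78 depended strongly on the window, the threshold and the libraries used, and so did the number of all genes called in either direction. The latter was 10262, and 8137 with no flank, 12915 with 50 kb flanks, 2769 with a common log2 minimum of 0.34, 3335 with regions of at least 5 kb, 3979 without WT and 13005 without 5FdUR_UGI_MMR. Genes called higher numbered 26, and 15 with no flank, 42 with 50 kb flanks, 0 with a common log2 minimum of 0.34, 4 with regions of at least 5 kb, 4 without WT, 47 without 5FdUR_UGI_MMR and 11 to 38 with any single library left out. Genes called lower numbered 1, and 2 with 50 kb flanks, 0 with no flank, the common minimum, long regions, without WT or without 5FdUR_UGI_MMR, and 0 to 1 with a library left out. Condition means and merged files gave 0 calls in either direction, and no gene of the genome was called there. With 1 value per condition there are few splits, and no gene can pass the adjusted threshold unless most genes separate fully. These 0 calls therefore cannot be read as a change of the result. Settings that left out libraries also allowed fewer splits than the 3003 of the main test.

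Every RTX library above every 5FdUR library held in 16 genes, and in 35 with 50 kb flanks, 9 with the common minimum, 8 with long regions, 45 for condition means, 34 in merged files and 16 to 33 with a library left out. The reverse held in 3, and in 0 with the common minimum, 7 for condition means, 6 without 5FdUR_UGI_MMR and 6 in merged files. RTX was above all non-treated libraries in 44 genes, and in 68, 25 and 23 with 50 kb flanks, the common minimum and long regions. 5FdUR was above them in 9, and in 4 with no flank, 18 with 50 kb flanks, 0 with the common minimum, 4 with long regions, 23 for condition means, 34 without 5FdUR_UGI_MMR and 9 to 15 with a library left out. For these orders, the shares of all genes were not counted in the alternative settings, so the counts cannot be weighed against them.

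The MMR count of 27 with 5FdUR was 12 with no flank, 47 with 50 kb flanks, 3 with the common minimum, 7 with long regions and 27 to 46 with a library left out, and that of 34 with RTX was 22 with no flank. Genes covered in K562 numbered 18 with 50 kb flanks and 0 with long regions. The shares of all genes were not counted for the MMR and K562 counts in these settings. Class medians moved by less than the SD of the library medians of the class. For 5FdUR this SD was 12.3 percentage points and the median 8.66%, so even a fall to 0 would have passed this bound. The 5FdUR median ran from 1.28 to 11.5% with a library left out. The drug difference of RPSA turned to 1.23 and 4.77 percentage points with 10 and 50 kb flanks, and ran from -0.677 to 0.108 with a library left out. That of RPL31 turned to 3.14 with 50 kb flanks and ran from -2.11 to 0.406, and that of RPL36AL ran from -0.265 to 5.06. The sign turned without NT_UGI_MMR replicate 2 in the first 2 genes and without RTX_UGI replicate 2 in the last. The causes were not tested.

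Limma called 32 genes higher and 1 lower, and 10764 genes of the genome in either direction. With the replicate number as a block, 23 were called higher and 1 lower, and 9046 genes of the genome were called in place of 10262. Same-numbered libraries did not deviate together, with correlations of deviations between -0.214 and 0.116 over 21 pairs of conditions, so the number was not used as a pairing.

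The files list regions above a threshold that differs between libraries, so that a value of 0 bounds nothing, and depth is not given. All drug-treated cells express UGI, and each drug was given at 1 dose and time.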
